A study of Capra hircus with 3 samples.

Results

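The miR-23, miR-24 and miR-27 clusters were followed through the hair cycle in skin of the Shanbei White cashmere goat. Small RNA libraries were made in anagen, the growth stage of the hair follicle, in catagen, its regression, and in telogen, its rest. There was 1 library per stage, and each was made from total RNA of the mixed skin of 10 adult goats, with no other treatment or genotype named. A tag is a distinct sequence, and its count is the number of reads with that sequence. Members were the tags whose first 18 nt lie within the tags that the authors annotated to the precursors miR-23a, miR-23b, miR-24-1, miR-24-2, miR-27a or miR-27b. They numbered 1446 of the 4043974 distinct tags, with 460567 of the 61125752 clean reads. Only 158 of these tags, with 4275 reads, begin exactly as a listed tag does. The list used here is shortened, with 51 tags of the 6 precursors, and holds none for the 3p arm of miR-24, which was therefore not analysed here.

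A miRNA precursor is a hairpin, and either side of it, the 5p arm or the 3p arm, can give a mature miRNA of about the same length. Bases 2 to 8 of the mature miRNA, the seed, pair with target mRNAs. In vertebrates miR-23, miR-27 and miR-24 lie side by side in paralogous clusters, each read as a common primary transcript. miR-27 is known as a brake on fat cell differentiation, and these clusters are also known for roles in blood vessels. In the RefSeq genes of goat (assembly ARS1.2), MIR23A neighbours MIR27A, and MIR23B, MIR27B and MIR24 follow each other in that order.

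The most-read tags show how the paralogues relate. They were read from the deposited tags, and are written as DNA from 5′ to 3′ with the seed in capitals.
miR-23a-3p: aTCACATTgccagggatttcca
miR-23b-3p: aTCACATTgccagggattacca
miR-27a-3p: tTCACAGTggctaagttccgc
miR-27b-3p: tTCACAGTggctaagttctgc
Within each family the 3p arms share the seed and the first 18 nt. The miR-23 tags differ by T19A and the miR-27 tags by C19T, counted from 1 at the 5′ end of these tags, with the base of the a form first. Base 19 therefore decided to which paralogue a read belonged, and a read that ended before it, or held another base there, was kept apart as shared. Base 19 of miR-23a was taken from its listed tag. No listed tag of miR-27 runs that far, so C for miR-27a and T for miR-27b follow the known mature sequences. A 19-nt read rests on this base alone, and its last base could also be an addition to an 18-nt form.

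The 5p arms are the minor products of these hairpins. Their most-read tags are shown because their seeds differ from those of the 3p arms and, for miR-23 and miR-27, between paralogues. The miR-24-2-5p tag shown begins a base earlier than most reads of that arm (59.4% in anagen, 64.2% in catagen and 57.5% in telogen). Those reads share the seed of miR-24-1-5p, TGCCTAC.
miR-23a-5p: gGGGTTCCtggggatgggattt
miR-23b-5p: gGGTTCCTggcatgctgattt
miR-24-1-5p: gTGCCTACtgagctgatatcagt
miR-24-2-5p: cGTGCCTActgagctgaaacaca
miR-27a-5p: aGGGCTTAgctgcttgtgagca
miR-27b-5p: aGAGCTTAgctgattggtgaa

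Where 3 values are given without a stage, they follow the order anagen, catagen, telogen. The libraries held 15997828, 18111912 and 27016012 clean reads, and 3 reads, the floor used here, correspond to 0.188, 0.166 and 0.111 reads per 1000000 clean reads (TPM). The members made up 0.599%, 0.915% and 0.736% of the clean reads. Reads under 18 nt had been removed by the authors before deposit, 3.38%, 2.66% and 0.566% of the high-quality reads, and reads of exactly 18 nt were 2.34%, 1.49% and 0.665% of the clean reads. Markers of other tissues moved between the libraries as well. The 4 skeletal muscle miRNAs, such as miR-1 and miR-206, were all detected and summed to 4120 TPM in anagen against 78800 in catagen and 21400 in telogen. The 3 red blood cell miRNAs summed to 1310, 2140 and 879 TPM, of which miR-451 was 863, 1270 and 431 TPM. miR-144 was at 114, 92.1 and 9.33 TPM, and miR-486 at 335, 779 and 438 TPM, in telogen slightly above miR-451. The 2 smooth muscle miRNAs summed to 12800, 7600 and 11700 TPM, nearly all miR-143, with miR-145 in another order at 26.8, 40.1 and 35.7 TPM, and miR-126 of endothelium was at 39.0, 32.0 and 37.1 TPM. Of 7 epithelial miRNAs the 6 that could be counted summed to 1100, 1890 and 1980 TPM, of which miR-205 was 1010, 1800 and 1880 TPM, and miR-200a, miR-141 and miR-429 were not higher in catagen than in anagen. The 3 of 4 leucocyte miRNAs that could be counted summed to 131, 184 and 224 TPM, and the 2 of 3 mesenchymal miRNAs, nearly all miR-199a, to 12900, 23500 and 18500 TPM, whereas miR-122 of liver could not be counted. The part of these cell types in the results below was not tested, and in whole skin fewer cells of a type and less RNA per cell cannot be told apart.

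miR-23a-3p and miR-23b-3p were the abundant members, and both were lowest in anagen. miR-23a-3p had 2530, 4580 and 3400 TPM, from 40433, 83030 and 91722 reads. Levels of miR-23b-3p were 1660, 3000 and 2770 TPM, from 26608, 54334 and 74964 reads. The catagen library was the highest for both, but for miR-23b-3p its order with telogen turned under both other scalings (log2 ratio catagen over telogen -0.18 and -0.06). Anagen over catagen, the log2 ratio of miR-23a-3p was -0.86 (95% interval -0.88 to -0.84) and that of miR-23b-3p -0.85 (-0.87 to -0.83), below the 2-fold limit that a call needs, which both passed when only tags of 21 nt or longer were counted (-1.28 and -1.05). Anagen over telogen, the ratios were -0.43 (-0.44 to -0.41) and -0.74 (-0.76 to -0.72). Intervals cover counting error only: no stage has a replicate, and the tests compare libraries, not stages of the hair cycle.

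The forms of miR-27 that base 19 tells apart were also lower in anagen than in catagen, although the most-read tag of miR-27a-3p alone was higher (log2 ratio 0.90, 0.74 to 1.07). miR-27b-3p had 380, 670 and 604 TPM and miR-27a-3p had 225, 354 and 188 TPM. The log2 ratios anagen over catagen were -0.82 (-0.86 to -0.77) for miR-27b-3p and -0.65 (-0.71 to -0.59) for miR-27a-3p. Against telogen the paralogues had opposite signs, with -0.67 (-0.71 to -0.62) for miR-27b-3p and 0.26 (0.20 to 0.32) for miR-27a-3p, whose sign turned when reads were scaled to the whole miRNA table (-0.04) or restricted to tags of 21 nt or longer (-0.63). None of these ratios reached the 2-fold limit, but in tags of 21 nt or longer those against catagen did, at -1.81 for miR-27b-3p and -1.64 for miR-27a-3p, as did that of miR-27b-3p against telogen (-1.52). Catagen over telogen, miR-27a-3p had the largest log2 ratio of the told-apart 3p arms, 0.91 (0.86 to 0.97), beside 0.43 (0.42 to 0.45) for miR-23a-3p. With the most-read tag alone it turned to -1.21 (-1.36 to -1.06), and that of miR-27b-3p became 1.19. Those of miR-27b-3p, 0.15 (0.12 to 0.18), and miR-23b-3p, 0.11 (0.10 to 0.13), turned to -0.14 and -0.18 when scaled to the whole miRNA table.

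The shared reads ran the other way and were highest in anagen. Shared miR-27-3p reads had 924, 427 and 329 TPM, more than both told-apart miR-27 forms together in anagen (606 TPM) and fewer in catagen (1020 TPM) and telogen (792 TPM). Their log2 ratio was 1.11 (1.07 to 1.15) anagen over catagen and 1.49 (1.45 to 1.53) anagen over telogen, both called. Shared miR-23-3p reads had 184, 54.3 and 18.1 TPM, with log2 ratios of 1.76 (1.66 to 1.87), 3.35 (3.21 to 3.49) and, catagen over telogen, 1.59 (1.43 to 1.75), all called. Nearly all shared miR-27-3p reads (99%) were 18 nt long, the length of a read that ends before base 19. Because the shared miR-27 reads are so many, the direction of each miR-27 paralogue depends on where they belong. With all of them given to miR-27a-3p its ratio anagen over catagen became 0.56, and with all of them given to miR-27b-3p that of miR-27b-3p became 0.25.

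With all forms and lengths summed, the miR-27-3p arm differed little between anagen and catagen. The sum was 1530, 1450 and 1120 TPM, with log2 ratios of 0.07 (0.05 to 0.10) anagen over catagen and 0.45 (0.42 to 0.47) anagen over telogen. Summed miR-23-3p was at 4370, 7640 and 6190 TPM, with ratios of -0.80 (-0.82 to -0.79) and -0.50 (-0.51 to -0.49). The 3p arms of the families thus differed in sign in both comparisons and kept these signs under both other scalings, of which the median of ratios put miR-27-3p at 0.46 anagen over catagen. The difference in sign turned with the lengths counted. In tags of 21 nt or longer summed miR-27-3p was lower in anagen too, at -1.74 (-1.79 to -1.69) over catagen and -1.21 (-1.26 to -1.16) over telogen, beside -1.18 (-1.20 to -1.16) and -0.93 (-0.94 to -0.91) for miR-23-3p.

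**Figure D1:**
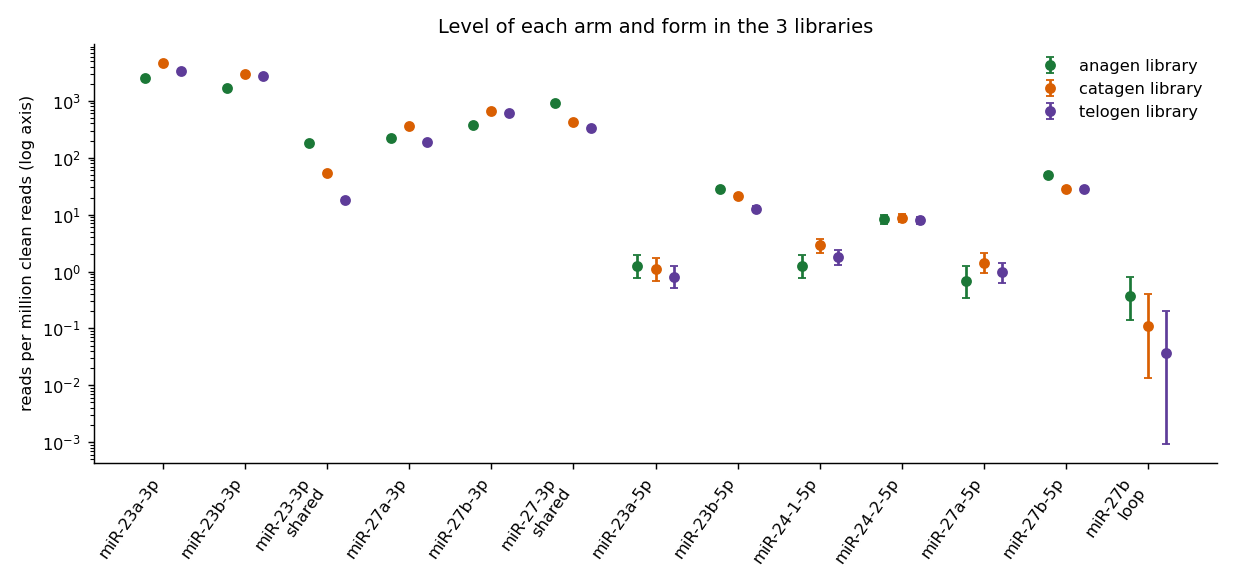
Level of each arm and form, in TPM on a log axis, in the anagen, catagen and telogen libraries, with 95% exact Poisson intervals that cover counting error only. miR-23a-3p and miR-23b-3p lie highest and are lowest in anagen, while the shared reads of miR-27-3p (924, 427 and 329 TPM) and miR-23-3p are highest in anagen.

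Over all 13 arms and forms, 12 passed the minimum of 1 TPM in either library for anagen against catagen, and 3 of them (25%) differed more than 2-fold with p under 0.01 in the Audic-Claverie exact test, the rule for a call. In the whole table of 480 miRNA sequences, the same rule called 84 of 304 (27.6%), 19 higher and 65 lower in anagen, with a median log2 ratio of -0.44. Against telogen, 3 of 11 member arms (27.3%) were called beside 79 of 302 sequences (26.2%). Catagen against telogen, 1 of 12 (8.33%) was called beside 44 of 303 (14.5%). The shares of members called were thus near or below those of the whole table. Most member calls were shared forms, and no other sequence of the table was split in this way, so the units compared are unlike. The counts of 3, 3 and 1 depend on which reads are counted: they were 6, 7 and 4 with the most-read tags alone, 5, 2 and 1 in tags of 21 nt or longer, and 1, 1 and 0 with the shared reads given to the b form. The remaining calls were miR-24-1-5p, lower in anagen than in catagen, and miR-23b-5p, higher in anagen than in telogen.

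**Figure D2:**
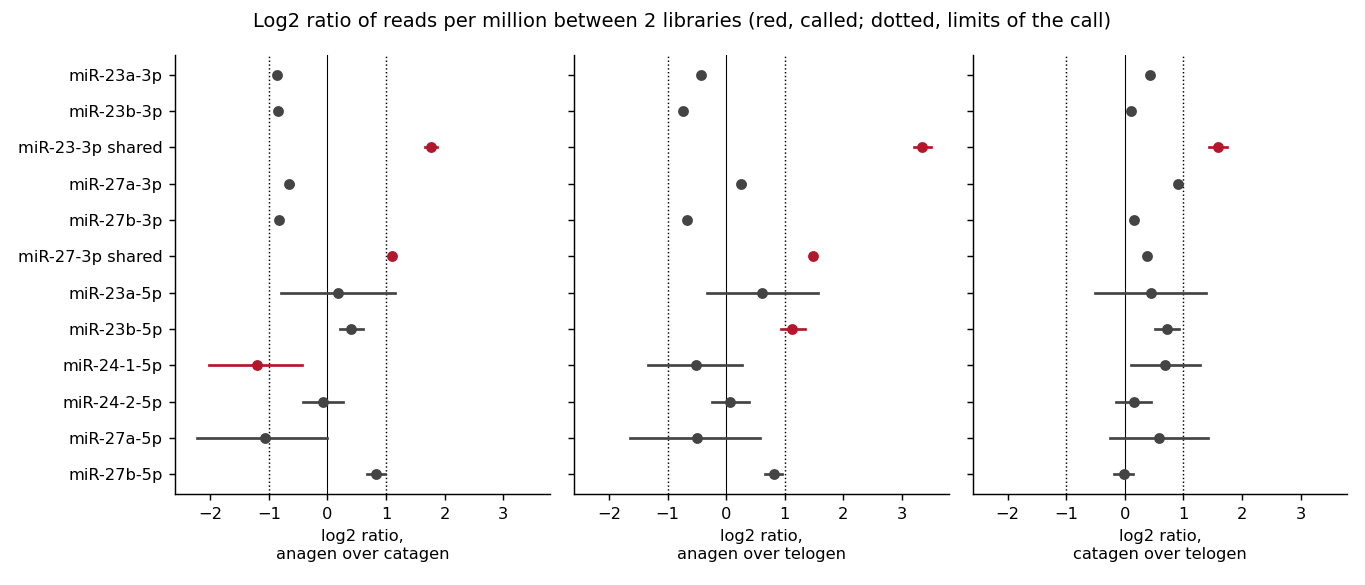
Log2 ratio of TPM for 12 arms and forms in the 3 pairs of libraries, with 95% exact intervals as lines, called arms in red, and the limits of the call at -1 and 1 dotted. The shared forms lie at the right in both comparisons with anagen, at 1.76 and 3.35 for miR-23-3p and 1.11 and 1.49 for miR-27-3p, whereas miR-23a-3p, miR-23b-3p and miR-27b-3p lie left of 0.

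miR-27b and miR-23b gave the most 5p reads of these precursors in each library. miR-27b-5p had 50.1, 28.2 and 28.6 TPM, from 802, 511 and 773 reads. Its log2 ratio was 0.83 (0.67 to 0.99, adjusted p = 2.73e-24 by the exact test with Benjamini-Hochberg adjustment) anagen over catagen and 0.81 (0.66 to 0.95) anagen over telogen, so that it was highest in anagen. Both ratios were below the 2-fold limit and passed it with the size factors from the median of ratios (1.22 and 1.03) and with the most-read tag alone (2.14 and 1.02). miR-23b-5p fell stepwise across the libraries, with 28.1, 21.1 and 12.8 TPM from 449, 382 and 346 reads. Anagen over telogen its log2 ratio was 1.13 (0.93 to 1.34, adjusted p = 1.39e-27, exact test), and 0.83 with reads scaled to the whole miRNA table, which is below the limit. miR-23a-5p had 20, 20 and 22 reads and miR-27a-5p 11, 26 and 26 reads, with intervals of every ratio that include 0. Tags of miR-27b in neither arm, named loop in the plot of levels, had 6, 2 and 1 reads.

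The share of the 5p arm in the told-apart reads of a precursor differed most in percentage points for miR-27b. It was 11.6% in anagen (95% Wilson interval 10.9 to 12.4), but 4.04% in catagen (3.71 to 4.4) and 4.53% in telogen (4.22 to 4.85), and the odds differed by 1.65 (1.48 to 1.81) on the log2 scale between anagen and catagen. For miR-23b the share was 1.66% (1.51 to 1.82), 0.698% (0.632 to 0.771) and 0.459% (0.414 to 0.510), again highest in anagen, and its log2 odds differed by 1.87 (1.67 to 2.07) between anagen and telogen. Those of miR-23a were 0.0494%, 0.0241% and 0.0240%, where anagen against catagen had an adjusted p of 0.0418 (Fisher's exact test, 15 comparisons), and those of miR-27a were 0.304%, 0.403% and 0.509%, with overlapping intervals. The shares of miR-27 leave out the shared reads of its 3p arm. With both precursors and all shared reads in, the 5p share of miR-27 was 3.22% (3.01 to 3.44), 2.0% (1.84 to 2.18) and 2.57% (2.40 to 2.75), a smaller excess in anagen than for miR-27b alone. The excess was larger without the short reads: in tags of 21 nt or longer these shares were 12.7%, 2.93% and 3.68%, and those of miR-27b 19.8%, 4.49% and 4.86%.

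The 5p arms of miR-24 were scarce, and miR-24-2 gave more reads than miR-24-1 in each library. miR-24-2-5p had 8.31, 8.78 and 7.92 TPM from 133, 159 and 214 reads, with a log2 ratio anagen over catagen of -0.08 (-0.42 to 0.26) and intervals of every pair that include 0. miR-24-1-5p had 1.25, 2.87 and 1.78 TPM from 20, 52 and 48 reads. Its log2 ratio anagen over catagen was -1.20 (-2.02 to -0.43, adjusted p = 0.00251, exact test), which passed the call on few reads, and it was no longer called with the size factors from the median of ratios (-0.81) or with the most-read tag alone (-1.73 from 4 and 15 reads).

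Paralogues were compared within a library, where depth and scaling cancel. miR-23a-3p to miR-23b-3p stood at 1.52, 1.53 and 1.22. The log2 difference was -0.01 (-0.04 to 0.02, adjusted p = 0.560 over 12 comparisons, Fisher's exact test) anagen over catagen and 0.32 (0.30 to 0.34) catagen over telogen. miR-27a-3p to miR-27b-3p stood at 0.592, 0.529 and 0.311, with differences of 0.16 (0.09 to 0.24), 0.93 (0.85 to 1.00, anagen over telogen) and 0.76 (0.70 to 0.83, catagen over telogen). In both families the a form was thus lowest against the b form in telogen, by 1.25-fold for miR-23 and 1.70-fold for miR-27 relative to catagen. Anagen over telogen the miR-23 difference of 0.31 (0.29 to 0.34) shrank to 0.07 (0.04 to 0.11) in tags of 21 nt or longer and to 0.04 (-0.01 to 0.09) with the most-read tag alone. With that tag, the miR-27 difference was 3.43 anagen over catagen and turned to -2.40 catagen over telogen. With shared reads given to the a form the difference anagen over catagen was 1.37, and with shared reads given to the b form the differences anagen over catagen and anagen over telogen turned to -0.90 and -0.22.

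Neighbours within a cluster were compared in the same way. miR-23b-3p to miR-27b-3p was at 4.37, 4.48 and 4.6, with differences of -0.03 (-0.08 to 0.02), -0.07 (-0.12 to -0.02) and, catagen over telogen, -0.04 (adjusted p = 0.0569, Fisher's exact test). miR-23a-3p to miR-27a-3p was at 11.2, 12.9 and 18.1, and differed by -0.69 (-0.75 to -0.62) anagen over telogen. These ratios rest on which reads are counted. In tags of 21 nt or longer the difference of miR-23b-3p to miR-27b-3p anagen over catagen became 0.75, and that of miR-23a-3p to miR-27a-3p 0.36. With the shared reads given to the b form the former was -0.97 anagen over catagen and -1.08 anagen over telogen, and with the most-read tags alone it was 1.44 anagen over catagen and -1.18 catagen over telogen. For miR-23a-3p to miR-27a-3p the shared reads given to the a form made the differences -1.33 anagen over catagen and -1.48 anagen over telogen, and the most-read tags alone made them -2.27 anagen over catagen and 1.54 catagen over telogen.

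The miR-27-3p reads were shorter in anagen than in the other libraries. The 18-nt tag, the shortest length the files can hold, is the first sequence below, with its seed in capitals.
miR-27-3p, 18 nt: tTCACAGTggctaagttc
miR-23-3p, 18 nt: aTCACATTgccagggatt
The 18-nt miR-27-3p tag had 14659, 7672 and 8792 reads, and that of miR-23-3p had 2633, 727 and 289. Reads of 18 nt were 60.0% (59.3 to 60.6) of all miR-27-3p reads in anagen, but 29.2% (28.6 to 29.7) in catagen and 29.1% (28.5 to 29.6) in telogen. Reads under 21 nt were 82.9%, 40.0% and 46.1%, and the mean length was 18.96, 20.61 and 20.39 nt. The log2 odds of a read under 21 nt were 2.86 (2.80 to 2.92) higher in anagen than in catagen and 2.50 (2.44 to 2.56) higher than in telogen.

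**Figure D3:**
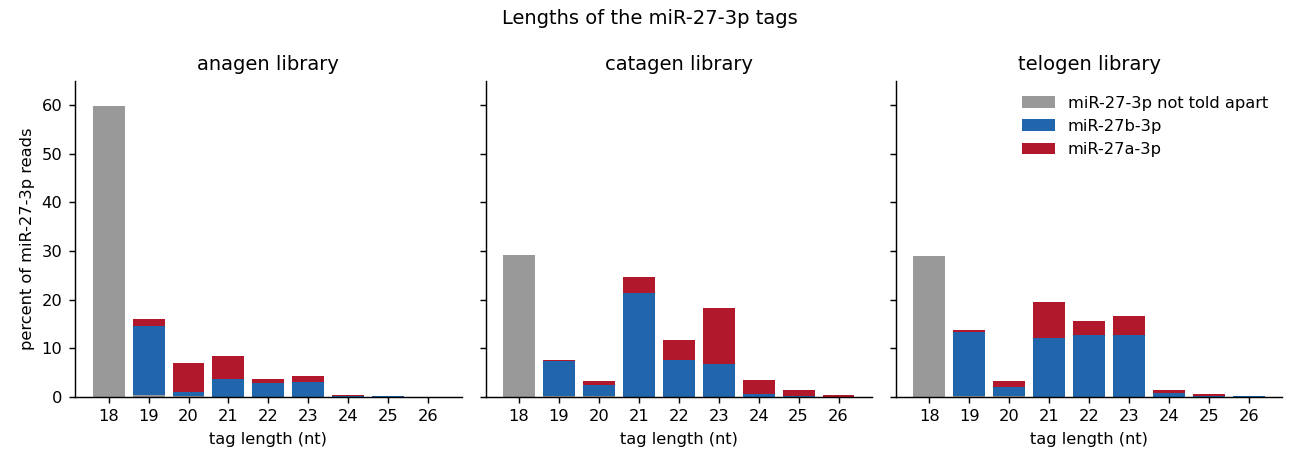
Percent of all miR-27-3p reads at each tag length from 18 to 26 nt in the anagen, catagen and telogen libraries, split into reads not told apart (grey), miR-27b-3p (blue) and miR-27a-3p (red). The 18-nt bar holds 60.0%, 29.2% and 29.1% of the reads, and the 23-nt bar of catagen is mostly miR-27a-3p.

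Short reads were more frequent in anagen for most other miRNAs too. Among 157 sequences of the whole table with at least 100 reads in each library, the median share of 18-nt reads was 0.660%, 0.0612% and 0.156%, and 123 of them had a higher share in anagen than in catagen. miR-27-3p ranked first for this share in anagen and second in catagen and in telogen, but it did not stand alone. A sequence of miR-6529 was at 54.5%, 28.7% and 26.1%, and one of miR-125b-2 at 43.0%, 18.3% and 17.0%. One of miR-2478 was at 55.6%, 68.9% and 38.9%. Its gain in 18-nt reads of 30.8 percentage points anagen minus catagen was the largest of the 157, beside a median gain of 0.568, and its gain of 30.9 against telogen was also the largest, beside a median of 0.526. As a ratio the gain was below that of the medians, since 18-nt miR-27-3p reads were frequent in every library. In reads under 21 nt miR-27-3p ranked 6, 5 and 10, and 7 of the 157 sequences gained more than its 42.9 points anagen minus catagen, beside a median gain of 4.76. Anagen minus telogen, 0 of the 157 gained more than its 36.8 points, beside a median of 3.68. miR-23-3p had fewer short reads, with 18-nt reads at 3.89%, 0.544% and 0.176% and reads under 21 nt at 34.2%, 14.5% and 11.5%. The library-wide shares of 18-nt reads and of reads removed as under 18 nt, given above, were also highest in anagen, and their part in the miR-27-3p lengths was not tested.

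**Figure D4:**
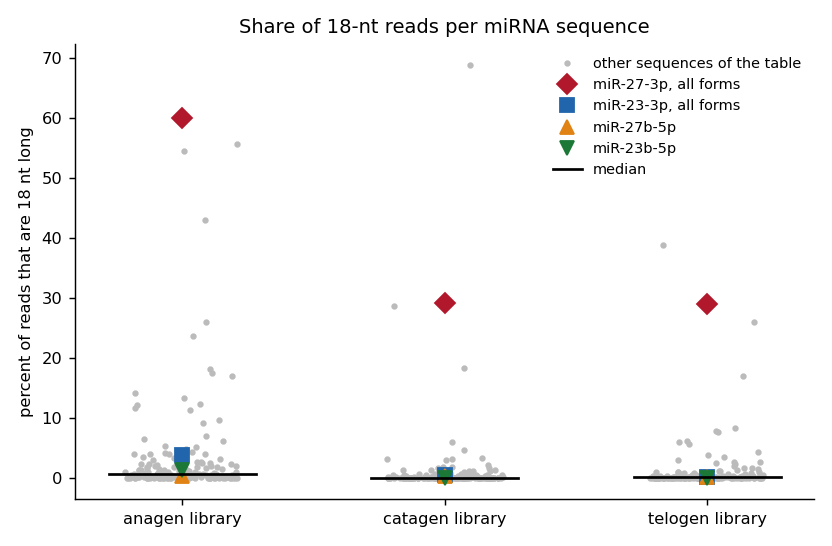
Percent of reads that are 18 nt long for 157 miRNA sequences with at least 100 reads in each library (grey), with the median as a black line and the member arms marked. miR-27-3p (red) stands at 60.0%, 29.2% and 29.1%, far above the medians of 0.660%, 0.0612% and 0.156%. A few other sequences lie near or above it.

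Each paralogue had lengths of its own. For miR-27b-3p the 19-nt tags held 56.9%, 15.8% and 24.5% of the reads, and the 21-nt tags 14.8%, 46.3% and 22.5%. For miR-27a-3p the main length was 20 nt in anagen (40.7%), 23 nt in catagen (47.0%) and 21 nt in telogen (43.9%). Its mean length was greatest in catagen, at 22.75 nt, against 20.69 in anagen and 21.72 in telogen. In miR-23a-3p the 22-nt tags led in every library, with 33.3%, 45.6% and 49.1%, and the 19-nt tags rose to 20.5% in anagen from 3.18% in catagen and 2.49% in telogen. In miR-23b-3p 22-nt tags also led, with 26.5%, 30.6% and 32.6%, followed by 24-nt tags with 20.8%, 24.0% and 23.6%.

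The ends of miR-27a-3p in catagen stood apart from those in the other libraries. Of the reads that hold its 21-nt form, 91.3% (90.6 to 92.1) carried further bases in catagen, 37.9% (35.3 to 40.7) in anagen and 54.0% (52.4 to 55.7) in telogen. Its 21-nt tag alone had 772, 467 and 1609 reads. The most-read extended tags of the catagen library follow, with the bases after the 21-nt form in capitals.
miR-27a-3p, AT: ttcacagtggctaagttccgcAT
miR-27a-3p, AA: ttcacagtggctaagttccgcAA
miR-27a-3p, CA: ttcacagtggctaagttccgcCA
miR-27a-3p, TT: ttcacagtggctaagttccgcTT
The tag ending in AT had 95, 856 and 331 reads, and that ending in AA had 107, 590 and 309. The tag ending in CA had 16, 515 and 107 reads, and that ending in TT had 8, 498 and 61. The first base after the form was A in 40.8% of the extended reads of catagen, C in 36.5% and T in 21.6%, against 66.9%, 18% and 13.6% in anagen. Which of these bases belong to the hairpin was not determined, since no goat hairpin sequence was used.

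In catagen miR-27b-3p differed from the other libraries in the opposite direction. Its extended reads were 63.4% (61.4 to 65.4) of those holding the 21-nt form in anagen, only 41.1% (40.1 to 42.1) in catagen and 69.0% (68.2 to 69.9) in telogen. Its common extensions are shown with the bases after the 21-nt form in capitals.
miR-27b-3p, A: ttcacagtggctaagttctgcA
miR-27b-3p, AT: ttcacagtggctaagttctgcAT
The first had 574, 1607 and 3145 reads and the second 460, 1060 and 2180 reads, while the 21-nt tag had 817, 5340 and 3483. The first base after the form was A in 93.9%, 91.0% and 89.5% of the extended reads, above its share in miR-27a-3p in each library. For miR-27b-3p too it was not determined which of these bases belong to the hairpin, and the hairpins of the paralogues may differ there. The log2 odds of an extension differed by -4.11 (-4.32 to -3.89) for miR-27a-3p and by 1.31 (1.18 to 1.45) for miR-27b-3p, anagen over catagen. For miR-23a-3p, reads past the 22-nt form were 28.2%, 29.3% and 29.0% of those holding it, and for miR-23b-3p 61.1%, 61.2% and 59.7%, with log2 differences of at most 0.09 in size among the libraries.

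**Figure D5:**
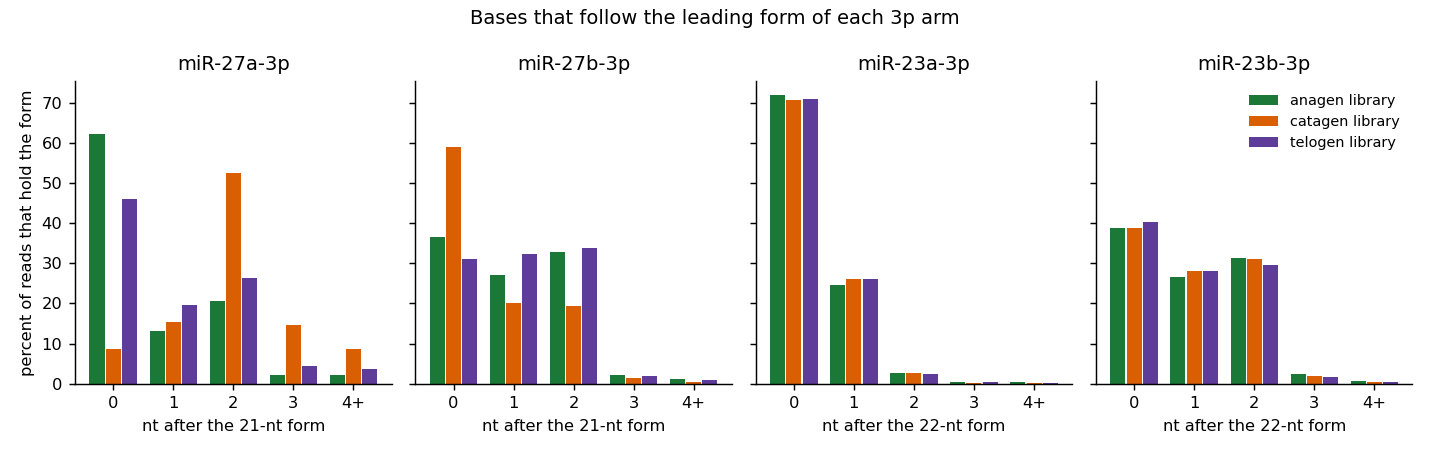
Percent of reads with 0, 1, 2, 3 or at least 4 nt after the 21-nt form of miR-27a-3p and miR-27b-3p and after the 22-nt form of miR-23a-3p and miR-23b-3p, in the anagen, catagen and telogen libraries. For miR-27a-3p the reads that end with the form were 62.1%, 8.66% and 46.0%, and for miR-27b-3p they were highest in catagen (58.9%). For the miR-23 arms the libraries lie close together.

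miR-27b-5p also had its longest reads in catagen. The 20-nt, 21-nt and 23-nt tags are shown because the balance between them differed.
miR-27b-5p, 20 nt: agagcttagctgattggtga
miR-27b-5p, 21 nt: agagcttagctgattggtgaa
miR-27b-5p, 23 nt: agagcttagctgattggtgaaca
The 20-nt tag had 159, 53 and 165 reads, the 21-nt tag 264, 68 and 220, and the 23-nt tag 151, 230 and 158. Reads under 21 nt were 25.3% (22.4 to 28.4) in anagen, but 11.7% (9.23 to 14.8) in catagen and 22.6% (19.8 to 25.7) in telogen. In miR-23b-5p the 21-nt tags led in every library with 69.5%, 74.1% and 74.3%, and the intervals of its reads under 21 nt overlapped.

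A shift of the first base moves the seed. The miR-23a-3p reads began almost always at the same base, with 97.2% to 97.9% of them at the leading start. Of the counted reads of miR-23b-3p, miR-27a-3p and miR-27b-3p, at least 98.3% were at the leading start and the others began earlier. Reads of miR-23a-3p that began 1 base earlier were 2.0%, 1.73% and 2.12%. Those that began 3 bases later were 0.438% (0.378 to 0.507) in anagen, but 0.107% (0.0871 to 0.132) in catagen and 0.0469% (0.0348 to 0.0631) in telogen, a rise in anagen of 3.23 (2.75 to 3.71) on the log2 odds scale against telogen. Starts after the leading base were not counted for miR-23b-3p, miR-27a-3p and miR-27b-3p, because their listed tags end too early, so for these arms the share covers earlier starts only. miR-27a-3p reads that began 2 bases earlier had 25, 67 and 82 reads, whereas miR-27b-3p had 0, 0 and 2 such reads.

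The 5p arms of miR-24 and miR-27b had less fixed starts. The tags below begin 1 base apart or are those of the shifted start, with the seed in capitals.
miR-24-2-5p, leading start: gTGCCTACtgagctgaaacacagt
miR-24-2-5p, 1 base earlier: cGTGCCTActgagctgaaacaca
miR-27b-5p, 1 base earlier: cAGAGCTTagctgattggtgaaca
The earlier start held 39.1% (31.2 to 47.6), 30.2% (23.6 to 37.7) and 41.6% (35.2 to 48.3) of miR-24-2-5p reads, with overlapping intervals. The leading starts of miR-24-1-5p and miR-24-2-5p share the seed TGCCTAC. In miR-24-1-5p the earlier start had 7, 3 and 11 reads and a start 1 base later had 0, 13 and 3 reads, and the odds of the earlier start differed between anagen and catagen (adjusted p = 0.00906, Fisher's exact test). In miR-27b-5p the earlier start held 12.1%, 14.1% and 13.7% of the reads, and its odds did not differ beyond counting error (adjusted p from 0.400 to 0.869, Fisher's exact test, 18 comparisons).

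For each told-apart 3p arm the closest sequences outside the members were sought among 152 with at least 100 reads in each library. The distance was that of log2 TPM centred on its mean over the 3 libraries. miR-155 (43.8, 77.7 and 55.3 TPM, distance 0.0652) and miR-199a (12900, 23400 and 18500 TPM, distance 0.0747, a sequence shared with miR-199c) were closest to miR-23a-3p. miR-10b (566, 1010 and 937 TPM) was closest to miR-23b-3p at 0.00876, and miR-324 (6.38, 11.4 and 10.1 TPM) to miR-27b-3p at 0.0192. Each of these was also the second closest to the other of these arms, at 0.0438 and 0.0529. For miR-27a-3p a sequence of the ruminant miR-2284 family (52.4, 78.6 and 41.2 TPM, distance 0.0664) and miR-345 (64.6, 94.4 and 54.0 TPM, distance 0.0885) were closest. With 3 libraries, such a distance rests on 3 values. The distances use reads of all lengths, and none is given for tags of 21 nt or longer. In those tags the log2 ratio of miR-27b-3p anagen over catagen moved from -0.82 to -1.81.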

How the data were processed

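Skin RNA of the 3 stages was sequenced by the authors on an Illumina/Solexa Genome Analyzer. The authors removed low-quality, adapter, poly(A) and under 18 nt reads and deposited each distinct tag with its count, an unnormalised number of reads. No alignment enters these counts, and the program used for this filtering was not given in the sources used here.

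A tag was assigned by its first 18 nt to the listed tags of 336 precursors (2697 tags, joined where they overlapped by 14 nt or more), which gave 480 sequences. Each stage is 1 library, mapped by its label. As in the study's methods, TPM is reads over clean reads, a sequence needed 1 TPM in either library of a pair, 0 became 0.01, and pairs were compared with the Audic-Claverie exact test (two-sided). The call, more than a 2-fold difference and p under 0.01, was set here. Ratio intervals are exact (Clopper-Pearson), shares carry Wilson intervals and levels exact Poisson intervals at 95%, and these and the floor of 3 reads cover counting error only. Differences of ratios and shares were tested with Fisher's exact test and carry Wald intervals. With 1 library per stage no quasi-likelihood model could be fitted, and p-values compare libraries. Each arm with at least 10 reads is named, and for each told-apart 3p arm the 2 nearest sequences. The members, marker lists and tests were chosen with earlier results of these data known. The exact test, its call rule and the interval of the log2 ratio were tried on simulated counts. The assignment of tags to arms was not tested in this way. Alternatives were other scalings, length limits, the most-read tag, listed starts only, no minimum, adjusted p-values, Fisher's test for calls, distinct tags and, chosen after seeing the data, the placing of shared reads. Also not planned were the other scalings and the length limit for the summed families. The same holds for the length limit and listed starts in the differences of paralogues and neighbours, and for the length limit in the start shares. Python 3.11.15, numpy 2.4.6, SciPy 1.17.1, pandas 2.3.3 and matplotlib 3.10.9 were used.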

Additional observations from a re-analysis of the deposited data

How the results depend on the processing

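In the comparisons with anagen, counting error is small beside the choice of lengths for the miR-27-3p and miR-23-3p forms told apart. This does not hold for the scarce 5p arms of miR-24 and miR-23a. Catagen over telogen, tags of 21 nt or longer moved miR-27a-3p from 0.91 (0.86 to 0.97) to 1.01 (0.95 to 1.06), with overlapping intervals. They moved miR-23b-3p from 0.11 (0.10 to 0.13) to 0.08 (0.07 to 0.10). With no replicate the spread between goats is not known. Scaling to the reads of the whole table moved the log2 ratios against telogen by -0.30. Size factors from the median of ratios moved those of anagen by 0.39 over catagen and 0.22 over telogen, and those of catagen over telogen by -0.17. No paired analysis was possible because each stage has 1 library. Matching tags to a hairpin over their whole length was not run, since no hairpin sequences were used. No value is given where a setting left under 10 reads of an arm over both libraries of a pair. Benjamini-Hochberg adjustment, Fisher's exact test and no minimum gave the same numbers of called arms, 3, 3 and 1.

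Below, AC stands for anagen over catagen, AT for anagen over telogen and CT for catagen over telogen. Values are log2 ratios unless said otherwise, and the cause of a change was not tested except where fewer reads are counted by construction. With scaling to table reads, miR-23b-3p AT became -1.04 and passed the limit, and the sign turned for miR-27a-3p AT (-0.04), miR-23b-3p CT (-0.18), miR-27b-3p CT (-0.14) and miR-24-2-5p AT (-0.23) and CT (-0.15). With the size factors it turned for miR-23b-3p CT (-0.06), miR-27b-3p CT (-0.02) and miR-24-2-5p AC (0.31) and CT (-0.02), and 4 arms were called AT.

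In tags of 21 nt or longer, the told-apart 3p arms passed the limit AC, at -1.28 for miR-23a-3p, -1.05 for miR-23b-3p, -1.64 for miR-27a-3p and -1.81 for miR-27b-3p, as did miR-27b-3p AT (-1.52) and miR-27a-3p CT (1.01), and the number of called arms AC was 5. miR-27a-3p AT turned to -0.63 and miR-27b-5p CT to 0.17. Summed miR-27-3p turned to -1.74 AC and -1.21 AT. Of the shared forms, short by construction, this limit leaves few reads, with 0.21, 0.88 and 0.67 for miR-23-3p and -0.50 (-2.46 to 1.29, from 5 and 8 reads), -1.31 and -0.82 for miR-27-3p AC, AT and CT. The difference of miR-23a-3p to miR-23b-3p AC became -0.23, and turned for miR-23a-3p to miR-27a-3p AC (0.36) and miR-23b-3p to miR-27b-3p AC (0.75) and AT (0.55).

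With the most-read tag alone, 6, 7 and 4 arms were called AC, AT and CT. miR-23a-3p was at -1.36 AC and -1.03 AT, miR-23b-3p at -1.09 and -1.07, miR-27b-3p at -2.53, -1.34 and 1.19, and miR-27b-5p CT at -1.12. miR-27a-3p turned to 0.90 AC, -0.30 AT and -1.21 CT, and miR-24-2-5p to 0.74 AC and -0.26 CT. The difference of miR-23a-3p to miR-23b-3p was -0.28 AC and 0.04 AT, and signs turned for miR-27a-3p to miR-27b-3p CT (-2.40), miR-23a-3p to miR-27a-3p CT (1.54) and miR-23b-3p to miR-27b-3p AC (1.44) and AT (0.26).

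Tags that begin as a listed tag left few reads. miR-27a-3p was at -1.24 AC and -0.96 AT and miR-23b-3p at -0.21 CT, and 1 arm was called AT and 0 CT. The differences of miR-23a-3p to miR-23b-3p were 0.12 AT and 0.79 CT, and those of miR-23a-3p to miR-27a-3p -0.39, -0.09 and 0.29.

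Shared reads given to the a form left 1 call AC and 0 CT, with miR-27a-3p at 0.56 AC and 1.15 AT and the miR-23 paralogue difference AC at 0.08. Given to the b form, they left 1, 1 and 0 calls, with miR-27b-3p at 0.25 AC and 0.48 AT, the miR-23 paralogue difference AC at -0.13, the miR-27 paralogue differences at -0.90 AC and -0.22 AT, and miR-23b-3p to miR-27b-3p AC at -0.97. The share of miR-27-3p under 21 nt counted by distinct tags was 10.2%, 6.85% and 4.99% in anagen, catagen and telogen, and the share under 22 nt was 91.3%, 64.5% and 65.6%, highest in anagen under both.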
